A study of Mus musculus with 6 samples.

Results

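The citrate cycle burns acetyl units in the mitochondrial matrix, and a small set of side reactions refills it or draws carbon from it. In muscle from mice with and without *Tarsl2*, 31 genes for these enzymes were read from the count table by gene name. The table lists 53084 genes and unnamed transcribed regions, all 31 enzyme genes were found in it, and all 31 were among the 15075 genes with enough counts to be tested. They comprised 17 genes for mitochondrial enzymes of the cycle itself, 7 for mitochondrial enzymes that feed or drain it, and 7 for cytosolic enzymes that handle the same metabolites. The study made mice without *Tarsl2*, a gene for a threonyl-tRNA synthetase, by removing a fragment with exon 3 in C57BL/6J zygotes with CRISPR/Cas9. RNA-seq libraries were prepared from 3 *Tarsl2*+/+ mice (583, 584 and 595) and 3 *Tarsl2*-/- mice (588, 589 and 591), 1 library per mouse. All were C57BL/6 males aged 6 weeks on standard chow, and the deletion, made in zygotes, was not confined to muscle. Which muscle was taken for sequencing is not given in the sources used here.

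In the cycle, citrate synthase joins acetyl-CoA to oxaloacetate, and the following enzymes oxidise the product back to oxaloacetate while passing electrons to NAD+ or to ubiquinone. Reactions that add intermediates, such as the carboxylation of pyruvate, are called anaplerotic, and those that remove them, such as the formation of phosphoenolpyruvate, are called cataplerotic. Muscle is rich in mitochondria, and its oxidative fibres carry more cycle enzymes than its fast glycolytic fibres.

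Library totals lay between 16176591 and 20123767 counts. *Tarsl2* itself had 456 to 605 counts in the *Tarsl2*+/+ libraries and 30 to 40 in the *Tarsl2*-/- libraries, which matches the labels. The sample records name a retinal extraction, whereas none of 6 retinal genes exceeded 7 counts in a library and the 10 fast fibre markers summed to between 97906 and 113294 CPM (read counts relative to the library total, after TMM scaling by a trimmed mean of ratios between libraries). One fast fibre marker, *Tnnc2*, was listed near 0 in every library, at 0.0972 to 0.223 CPM. Mouse 589 stood apart within the *Tarsl2*-/- mice, with the highest level of all 6 mice for 10 of 10 slow fibre markers and for 7 of 8 adipocyte markers. Its sample label also differs, with the letters KOT where the other *Tarsl2*-/- mice have KO. What the added letter stands for is not given in the sources used here. In bulk muscle, fewer cells of a type and less RNA per cell cannot be told apart.

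Most enzyme genes lay higher in *Tarsl2*-/- muscle, but by small steps, and only 1 passed the test. Of the 31 genes, 25 had a positive log2 fold change (*Tarsl2*-/- over *Tarsl2*+/+) and 6 a negative one, with a median of 0.23, against a median of 0.0025 over all genes tested. *Idh2*, the NADP+-dependent isocitrate dehydrogenase of mitochondria, was the 1 gene called higher at an adjusted p under 0.05, and 0 were called lower. Over all 15075 genes, 0.896% were called higher and 1.37% were called lower by the quasi-likelihood test of edgeR (Benjamini-Hochberg adjusted). An unadjusted p under 0.05 was found for 16 of the 31 enzyme genes (51.6%) and for 19.8% of all genes, also by edgeR. In 16 of the 31 genes (51.6%) every *Tarsl2*-/- mouse lay above every *Tarsl2*+/+ mouse, as did 12.6% of all genes. The reverse order was seen in 2 of the 31 (6.5%), *Idh1* and *Acly*, and in 12% of all genes. Without mouse 589 the count was also 16, but the share of all genes rose to 16.8%, since 2 mice are more easily separated from 3. With libraries scaled by their totals alone it was 13 of 31 (41.9%), beside 9.9% of all genes.

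**Figure D1:**
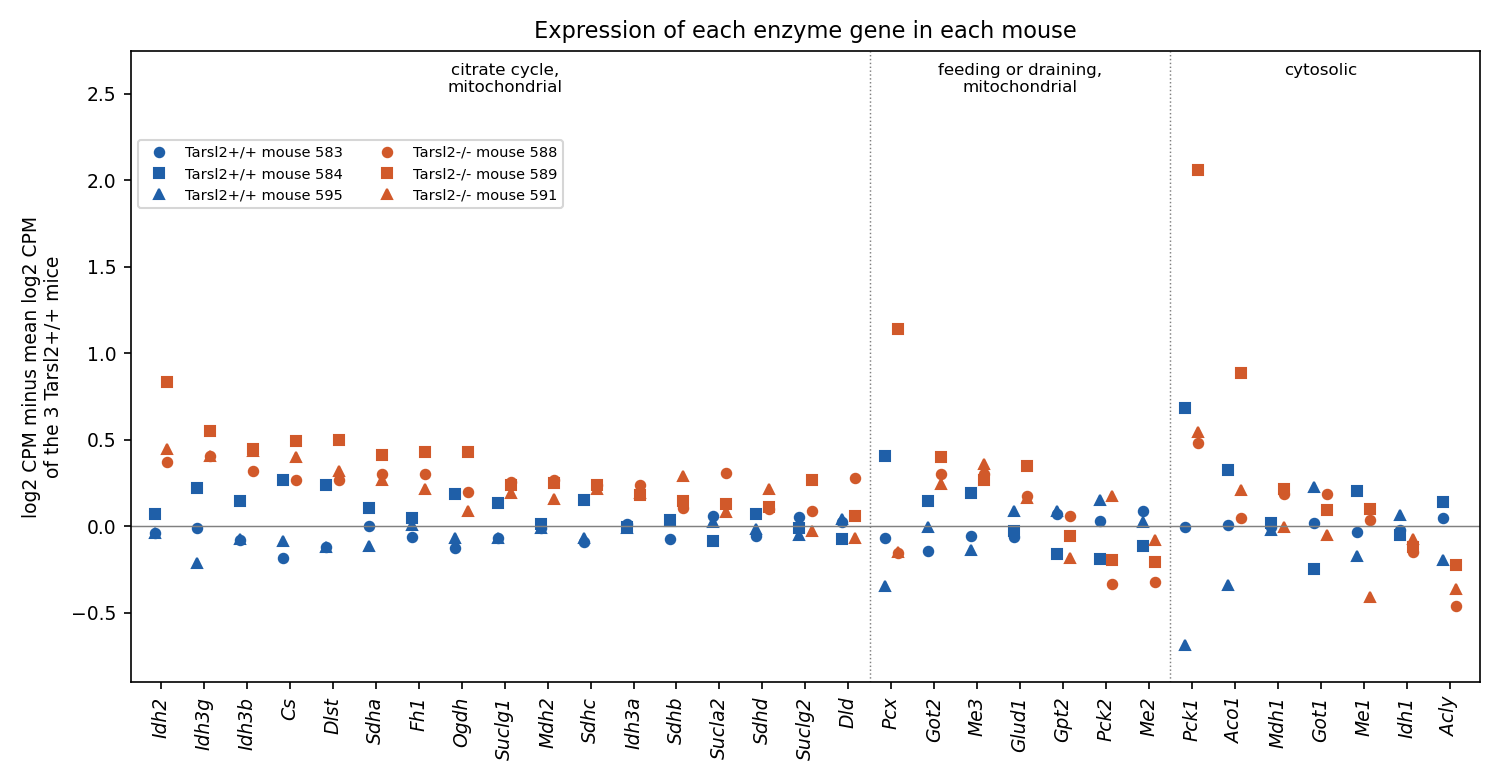
Expression of the 31 enzyme genes in each mouse, as log2 CPM minus the mean log2 CPM of the 3 *Tarsl2*+/+ mice; blue points are *Tarsl2*+/+ mice, orange points *Tarsl2*-/- mice, and each symbol is 1 mouse. Across the 17 mitochondrial cycle genes on the left, the median deviations of the *Tarsl2*-/- mice 588, 589 and 591 were 0.267, 0.267 and 0.218, and in *Pcx*, *Aco1* and *Pck1* mouse 589 sits far above the others.

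The genes differed widely in level, and the 3 highest per kilobase belonged to complex II and malate dehydrogenase. In *Tarsl2*+/+ muscle, *Sdhb*, the iron-sulphur subunit of complex II, stood at 323 ± 13.4 CPM per kb of the listed gene length (SD, n = 3). *Sdhd*, a membrane anchor of the same complex, followed at 292 ± 13.7, and *Mdh1*, the cytosolic malate dehydrogenase, at 177 ± 2.77. The lowest 3 levels were those of *Aco1* (5.38 ± 1.23), *Me2* (3.50 ± 0.250) and *Me3* (3.17 ± 0.383), and the last 2 overlapped in their spread. The malic enzymes *Me2* and *Me3* convert malate to pyruvate in mitochondria, and *Aco1* is the cytosolic aconitase, which also binds RNA when it lacks its iron-sulphur cluster. The order depends on the length used, since *Mdh1* fell behind *Mdh2*, *Idh3b*, *Idh3a* and *Sucla2* when levels were divided by the length of the principal transcript in GENCODE vM21. On that scale *Me3*, whose listed length is 14624 bases and whose principal transcript has 4485, was at 10.3 ± 1.25 CPM per kb, above *Aco1* (6.31), *Pck2* (4.94) and *Me2* (3.25).

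**Figure D2:**
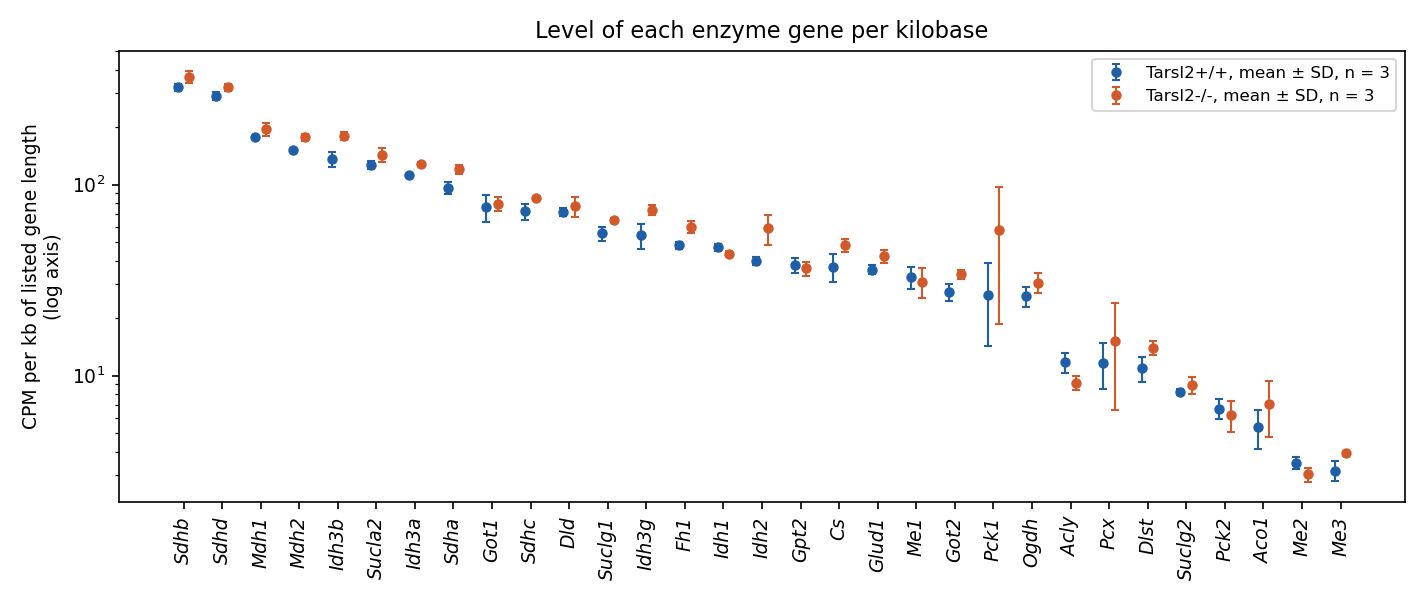
Level of each enzyme gene in CPM per kb of the gene length listed in the count table, on a log axis; points are means and bars SD of 3 mice per genotype, blue for *Tarsl2*+/+ and orange for *Tarsl2*-/-. Levels in *Tarsl2*+/+ muscle run from 323 for *Sdhb* to 3.17 for *Me3*, which has a long listed length, and the widest bars are those of *Pck1* and *Pcx* in *Tarsl2*-/- muscle.

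Entry into the cycle was represented by *Cs*, citrate synthase, an enzyme often measured as a marker of mitochondrial content. *Cs* was at 187, 257 and 201 CPM in *Tarsl2*+/+ mice 583, 584 and 595, and at 256, 300 and 281 CPM in *Tarsl2*-/- mice 588, 589 and 591. The genotypes overlapped at their edges, as mouse 584 (256.7) and mouse 588 (256.5) were at almost the same level. Its log2 fold change of 0.38 (standard error 0.12) did not pass the test (adjusted p = 0.122 by edgeR's quasi-likelihood test, as for all adjusted p-values that follow). It was called in 3 of 13 alternative fits, among them DESeq2 and the fit without mouse 584.

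Isocitrate is oxidised in mitochondria by 2 enzymes, the NAD+-dependent complex of *Idh3a*, *Idh3b* and *Idh3g* and the NADP+-dependent *Idh2*. All 4 genes were higher in every *Tarsl2*-/- mouse than in every *Tarsl2*+/+ mouse, as were 12.6% of all genes. *Idh2* (chr7:80094846-80115392, minus strand, mm10) was at 100.4, 108 and 100.5 CPM in *Tarsl2*+/+ mice and at 133, 184 and 141 CPM in *Tarsl2*-/- mice. The *Tarsl2*+/+ mice lay close together, and mouse 589 was the highest of the *Tarsl2*-/- mice. The means were 103 ± 4.57 and 153 ± 27.4 CPM (SD, n = 3), and the log2 fold change of 0.57 (standard error 0.12) passed the test (adjusted p = 0.0347). The call was lost when *Tarsl2*+/+ mouse 583 (adjusted p = 0.140) or 595 (0.115) or *Tarsl2*-/- mouse 589 (0.0827) or 591 (0.0704) was left out. Without mouse 589 the log2 fold change was 0.41, and it was between 0.41 and 0.65 over all 6 fits without 1 library. The span of *Idh2*, introns included, overlaps that of the predicted gene *Gm45203* on the same strand, so reads in the overlap could be counted on either. The principal transcript of *Idh2* shares 0.0% of its stretches of 100 bases with other genes.

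The catalytic subunit gene *Idh3a* was at 572, 565 and 563 CPM in *Tarsl2*+/+ mice and at 668, 642 and 648 CPM in *Tarsl2*-/- mice. That is a narrow spread within each genotype and a small step between them (log2 fold change 0.20, standard error 0.08, adjusted p = 0.209). The 2 regulatory subunits had larger fold changes. *Idh3b* was at 442, 517 and 443 CPM against 581, 635 and 632 CPM (log2 fold change 0.40, standard error 0.10, adjusted p = 0.0607). *Idh3g*, on the X chromosome, was at 144, 170 and 126 CPM against 193.4, 213 and 193.0 CPM (0.45, standard error 0.11, adjusted p = 0.0638). Both missed the threshold, and both were called by DESeq2 and without mouse 584. *Idh3b* overlaps *Nop56* on the opposite strand, and whether the counts used strand is not given in the sources used here.

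The next step, from alpha-ketoglutarate to succinyl-CoA, is carried out by a complex of *Ogdh* (decarboxylase), *Dlst* (succinyl transferase) and *Dld*, a lipoamide dehydrogenase shared with pyruvate dehydrogenase. *Dlst* was at 95.3, 122 and 95.5 CPM in *Tarsl2*+/+ mice and at 125, 146 and 129 CPM in *Tarsl2*-/- mice (log2 fold change 0.36, standard error 0.11, adjusted p = 0.12), without overlap. *Ogdh* was at 130, 161 and 135 CPM against 162, 190 and 150 CPM, so that mouse 591 lay below mouse 584 (0.24, standard error 0.11, adjusted p = 0.270). *Dld*, at 270, 252 and 273 CPM against 321, 276 and 253 CPM, showed no separation of the genotypes (0.10, standard error 0.10, adjusted p = 0.648). The log2 fold change of *Dld* was -0.0013 without mouse 588.

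Succinyl-CoA synthetase pairs the shared alpha subunit of *Suclg1* with the ADP-forming beta subunit of *Sucla2* or the GDP-forming beta subunit of *Suclg2*. *Suclg1* was at 244.2, 281 and 243.7 CPM in *Tarsl2*+/+ mice and at 306, 302 and 292 CPM in *Tarsl2*-/- mice (0.23, standard error 0.09, adjusted p = 0.194). *Sucla2* was at 528, 476 and 514 CPM against 627, 553 and 536 CPM (0.18, standard error 0.10, adjusted p = 0.347). Neither overlapped between genotypes. *Suclg2* was at 39.6, 37.9 and 36.8 CPM against 40.5, 45.8 and 37.4 CPM, with an overlap (0.11, standard error 0.10, adjusted p = 0.556). Part of *Suclg2*, 11.9% of its stretches of 100 bases, also occurs in *Gm15163* (284 counts over all 6 libraries), so the level of *Suclg2* is uncertain.

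Succinate dehydrogenase, complex II of the respiratory chain, oxidises succinate and hands its electrons to ubiquinone. All 4 subunit genes were higher in every *Tarsl2*-/- mouse than in every *Tarsl2*+/+ mouse, as were 12.6% of all genes, and 0 of the 4 passed the test. *Sdha*, the flavin subunit, was at 398, 427 and 366 CPM in *Tarsl2*+/+ mice and at 490, 528 and 477 CPM in *Tarsl2*-/- mice (0.33, standard error 0.09, adjusted p = 0.0926). *Sdhb* was at 688, 741 and 739 CPM against 777, 800 and 885 CPM (0.18, standard error 0.09, adjusted p = 0.308). The membrane anchors had log2 fold changes of 0.23 (*Sdhc*, standard error 0.09, adjusted p = 0.205) and 0.14 (*Sdhd*, standard error 0.09, adjusted p = 0.396). The 4 factors that assemble the complex had log2 fold changes of the other sign, from -0.33 to -0.01, with 0 of 4 called. Those with the smallest p were *Sdhaf3* (-0.32, adjusted p = 0.138), which helps insert the iron-sulphur clusters, and *Sdhaf4* (-0.33, adjusted p = 0.167), which acts on the flavin subunit.

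*Fh1*, fumarase, and *Mdh2*, mitochondrial malate dehydrogenase, complete the cycle. *Fh1* was at 156, 169 and 164 CPM in *Tarsl2*+/+ mice and at 201, 219 and 189 CPM in *Tarsl2*-/- mice (0.32, standard error 0.09, adjusted p = 0.0836). *Mdh2* was at 536.3, 544 and 535.8 CPM against 648, 642 and 601 CPM (0.23, standard error 0.09, adjusted p = 0.175). In both genes the *Tarsl2*+/+ mice differed little among themselves, and every *Tarsl2*-/- mouse lay above them.

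Over the 17 mitochondrial cycle genes, 17 log2 fold changes were positive and the median was 0.23. The groups did not overlap in 13 of them (76.5%, beside 12.6% of all genes), and 1 passed the test. The median was between 0.20 and 0.31 across the 13 alternative fits, and 17 of 17 stayed positive in each except the fit without mouse 588, where *Dld* turned and 16 did. The highest of the 6 values was in mouse 589 for 9 genes, in mouse 588 for 6 and in mouse 591 for 2. The lowest was in mouse 583 for 9 genes, in mouse 595 for 6 and in mouse 584 for 2. None of the 17 genes had its highest value in a *Tarsl2*+/+ mouse or its lowest in a *Tarsl2*-/- mouse, and without mouse 589 the median was 0.23.

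**Figure D3:**
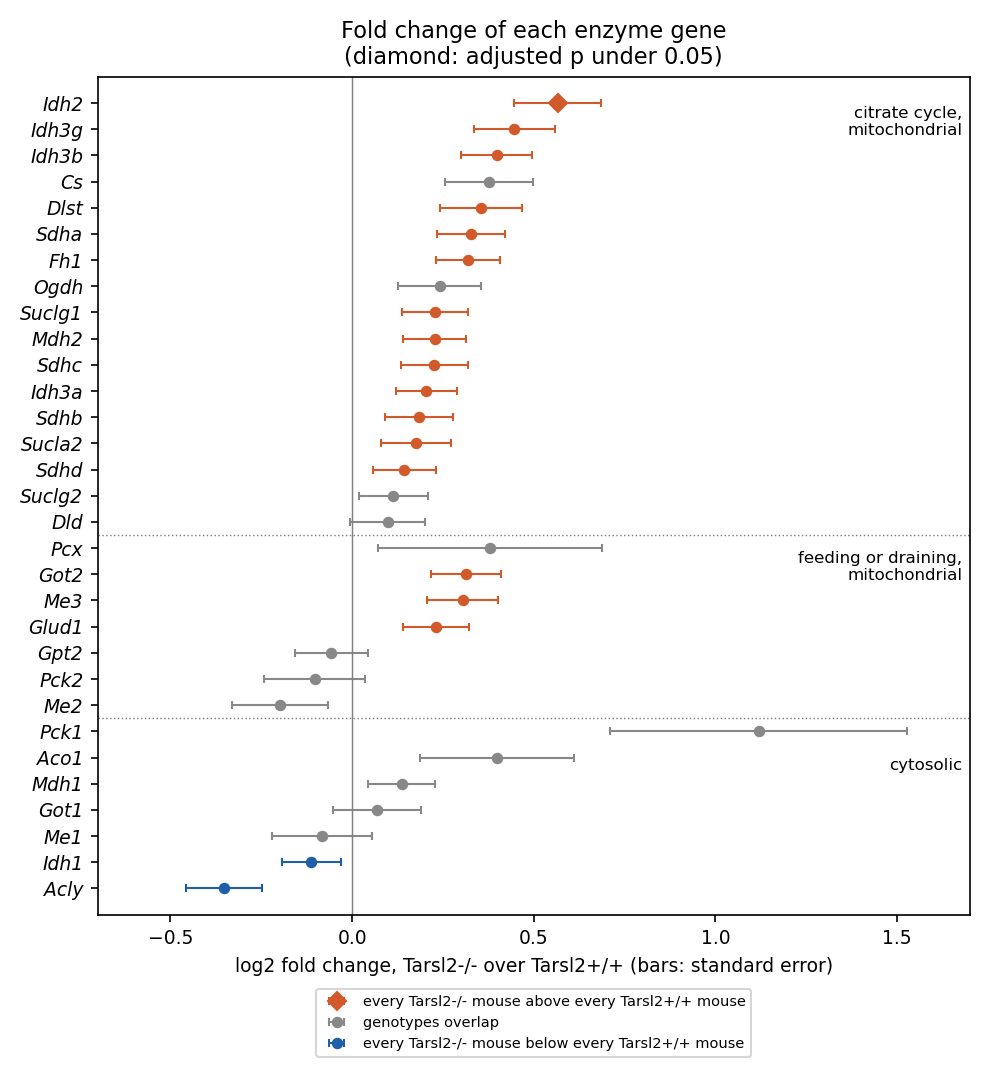
Log2 fold change of each of the 31 enzyme genes with its standard error from edgeR's quasi-likelihood fit, grouped by role; orange marks genes in which every *Tarsl2*-/- mouse lay above every *Tarsl2*+/+ mouse, blue the reverse, grey an overlap, and the diamond an adjusted p under 0.05. The 17 cycle genes all lie right of 0, led by *Idh2* at 0.57, while the 7 cytosolic genes run from -0.35 (*Acly*) to 1.12 (*Pck1*).

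Among the 7 mitochondrial enzymes that feed or drain the cycle, 4 log2 fold changes were positive and 3 negative, and 0 were called. *Got2*, the mitochondrial aspartate aminotransferase of the malate-aspartate shuttle, was at 119, 145 and 131 CPM in *Tarsl2*+/+ mice and at 162, 173 and 155 CPM in *Tarsl2*-/- mice (0.31, standard error 0.10, adjusted p = 0.110). *Glud1*, glutamate dehydrogenase, was at 141, 144 and 156 CPM against 166, 187 and 164 CPM (0.23, standard error 0.09, adjusted p = 0.185). *Me3* was at 44.5, 52.7 and 42.0 CPM against 57.0, 55.6 and 59.3 CPM (0.30, standard error 0.10, adjusted p = 0.121). In these 3 of the 7 (42.9%, beside 12.6% of all genes) every *Tarsl2*-/- mouse lay above every *Tarsl2*+/+ mouse. *Got2* shares 17.15% and *Glud1* 3.59% of their stretches of 100 bases with other genes, which could take some of their reads. Over all 6 libraries, *Got2-ps1*, which shares with *Got2*, held 77 counts. *Gm43444* and *Glud-ps*, which share with *Glud1*, held 0 and 55.

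The other 4 overlapped between genotypes. *Gpt2*, the mitochondrial alanine aminotransferase, ranged from 191 to 227 CPM in *Tarsl2*+/+ mice and from 188 to 223 CPM in *Tarsl2*-/- mice (-0.06, standard error 0.10, adjusted p = 0.802). *Pck2*, mitochondrial phosphoenolpyruvate carboxykinase, was at 19.98 to 25.3 CPM against 18.1 to 25.7 CPM (-0.10, standard error 0.14, adjusted p = 0.730, and 0.0013 without mouse 588). *Me2* was at 7.92 to 9.12 CPM against 6.86 to 8.12 CPM (-0.20, standard error 0.13, adjusted p = 0.439). *Pcx*, pyruvate carboxylase, the main anaplerotic enzyme for pyruvate, was at 50.5, 70.3 and 41.7 CPM in *Tarsl2*+/+ mice and at 47.6, 117 and 47.7 CPM in *Tarsl2*-/- mice. Its value of 0.38 (standard error 0.31, adjusted p = 0.537) rested on mouse 589, without which it was -0.18 (not called).

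The 7 cytosolic genes did not move in one direction: 4 log2 fold changes were positive and 3 negative, the median was 0.07, and 0 were called. In 0 of the 7 did every *Tarsl2*-/- mouse lie above every *Tarsl2*+/+ mouse, beside 12.6% of all genes. In 2 of the 7 every *Tarsl2*-/- mouse lay below (28.6%, beside 12% of all genes). With only 7 genes, neither count can be told from those shares. *Idh1*, the cytosolic NADP+-dependent isocitrate dehydrogenase, was at 129, 126 and 137 CPM in *Tarsl2*+/+ mice and at 118, 120 and 124 CPM in *Tarsl2*-/- mice. All 3 *Tarsl2*-/- mice were lower, by a small step (-0.11, standard error 0.08, adjusted p = 0.483). *Acly*, ATP citrate lyase, which splits exported citrate to supply acetyl-CoA for lipid synthesis, was at 63.7, 67.9 and 53.9 CPM against 44.7, 52.8 and 47.9 CPM. It too was lower in all 3, and its log2 fold change was -0.35 (standard error 0.10, adjusted p = 0.0991), or between -0.44 and -0.28 in the fits without 1 library.

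*Pck1*, cytosolic phosphoenolpyruvate carboxykinase, had the largest log2 fold change of the 31 and the largest standard error. It was at 84.3, 136 and 52.7 CPM in *Tarsl2*+/+ mice and at 118, 353 and 123 CPM in *Tarsl2*-/- mice. Mouse 589 was far above all others, and mouse 584 lay above mice 588 and 591. The log2 fold change was 1.12 (standard error 0.41, adjusted p = 0.161) and 0.41 without mouse 589. *Aco1* was at 23.9, 29.8 and 18.8 CPM against 24.5, 43.8 and 27.5 CPM (0.40, standard error 0.21, adjusted p = 0.327), and 0.11 without mouse 589. *Mdh1* (0.14, standard error 0.09, adjusted p = 0.452), *Got1*, the cytosolic aspartate aminotransferase (0.07, standard error 0.12, adjusted p = 0.807), and *Me1*, the cytosolic malic enzyme (-0.08, standard error 0.14, adjusted p = 0.789), overlapped between genotypes. *Me1* shares 14.55% of its stretches of 100 bases with *Gm7049* and *Gm7329*, which held 0 and 27 counts over all 6 libraries.

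*Pck1* and *Pcx* are both known to be strongly expressed in fat, and in both genes mouse 589 was highest and mouse 584 next. The 8 adipocyte markers summed to between 2769 and 4224 CPM in *Tarsl2*+/+ mice and between 3245 and 7202 CPM in *Tarsl2*-/- mice, in the same order of these 2 mice. *Adipoq*, which encodes adiponectin, was at 114, 195 and 102 CPM in *Tarsl2*+/+ mice and at 119, 313 and 121 CPM in *Tarsl2*-/- mice, and 0 of the 8 markers was at 0 or called. *Lep*, which encodes leptin and had the smallest p of the 8, ran the other way, at 8.13, 23.5 and 16.7 CPM against 7.41, 10.8 and 6.07 CPM (log2 fold change -1.01, adjusted p = 0.116). Slow fibre markers summed to between 1079 and 1861 CPM against 1531 and 2280 CPM, with 0 of 10 called. Their log2 fold changes were nonetheless all positive, with a median of 0.41, beside 0.23 for the 17 mitochondrial cycle genes. An unadjusted p under 0.05 by edgeR was found for 5 of these 10 markers, beside 19.8% of all genes. In only 1 of the 10 slow fibre markers did every *Tarsl2*-/- mouse lie above every *Tarsl2*+/+ mouse, beside 12.6% of all genes. Fast fibre markers overlapped in their sums, at 97906 to 106948 CPM against 101303 to 113294 CPM. Of 9 tested, 2 were called higher (0.896% of all genes were), *Actn3* (0.69, adjusted p = 0.00807) and *Myh1* (0.59, adjusted p = 0.0150). Of the 9 log2 fold changes, 7 were positive and 2 negative, with a median of 0.16. The 2 negative ones were *Pvalb* (-0.23, adjusted p = 0.347), lower in every *Tarsl2*-/- mouse, and *Myh4* (-0.03, adjusted p = 0.936). Leukocyte markers were lower, at 193 to 254 CPM in *Tarsl2*+/+ mice and 107 to 130 CPM in *Tarsl2*-/- mice. Of 7 tested, 3 were called lower (1.37% of all genes were). Endothelial markers were at 149 to 169 CPM against 114 to 149 CPM, with 1 of 6 called lower (1.37% of all genes were). Erythrocyte markers, with 0 of 6 called, were at 4748 to 10392 CPM against 4166 to 4536 CPM. Hepatocyte markers summed to no more than 13.8 CPM. The part of these cell types in the values of the enzyme genes was not tested.

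**Figure D4:**
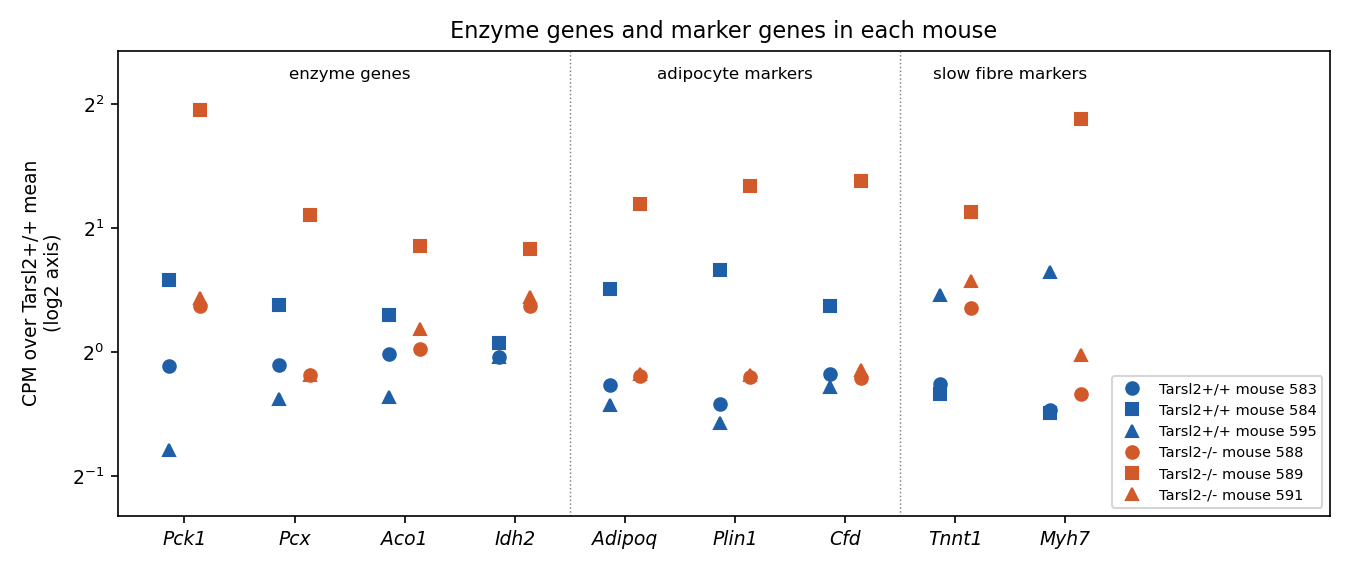
Level of 4 enzyme genes, 3 adipocyte markers and 2 slow fibre markers in each mouse, as CPM over the *Tarsl2*+/+ mean on a log2 axis; blue points are *Tarsl2*+/+ mice and orange points *Tarsl2*-/- mice. Mouse 589 is the highest in all 9 genes, at 353 CPM for *Pck1* and 313 CPM for *Adipoq*, whereas in *Idh2* mice 588 and 591 also lie above the *Tarsl2*+/+ mice, at 133 and 141 CPM.

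For 4 reactions with related enzymes encoded by different genes, the ratio of the genes within a library removes the scaling between libraries. The ratio of *Idh2* to *Idh1* per kb was 0.835, 0.922 and 0.787 in *Tarsl2*+/+ mice and 1.21, 1.64 and 1.21 in *Tarsl2*-/- mice, without overlap. The means were 0.848 ± 0.0681 and 1.36 ± 0.246 (SD, n = 3), a log2 difference of 0.66. The exact two-sided permutation test gave p = 0.1, the smallest that 3 mice against 3 allow, and p = 0.2 after adjustment over the 4 ratios. *Mdh2* to *Mdh1* was 0.849, 0.848 and 0.861 against 0.902, 0.875 and 0.953, also without overlap (log2 difference 0.09, exact p = 0.1, adjusted 0.2). *Got2* to *Got1* (0.24, exact p = 0.4, adjusted 0.533) and *Sucla2* to *Suclg2* (0.06, exact p = 0.6, adjusted 0.6) overlapped between genotypes. Which of the 2 genes is higher in *Tarsl2*+/+ muscle depends on the length used, and the log2 difference between genotypes does not. Per kb of listed length *Idh2* was below *Idh1* in all 3 *Tarsl2*+/+ mice, whereas per kb of principal transcript it was at 57.56, 62.1 and 57.58 CPM against 55.9, 54.7 and 59.4 CPM, above *Idh1* in mice 583 and 584.

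**Figure D5:**
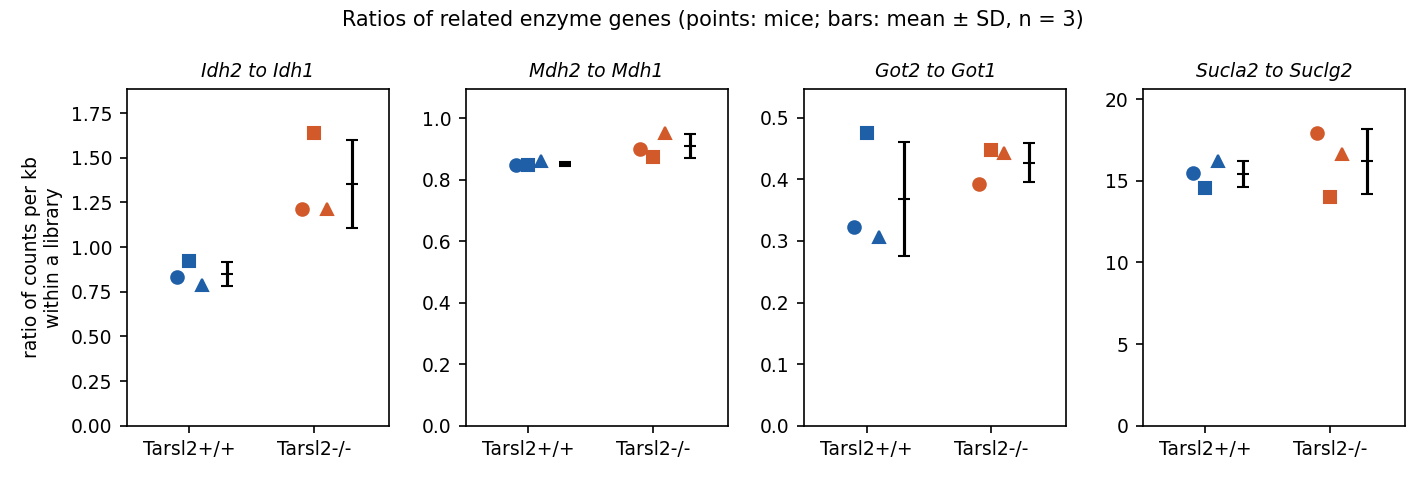
Ratio of related enzyme genes within each library, in counts per kb of listed gene length; points are mice, and bars are the mean and SD of 3 mice. The *Idh2* to *Idh1* ratio is 0.787 to 0.922 in *Tarsl2*+/+ mice and 1.21 to 1.64 in *Tarsl2*-/- mice, while *Got2* to *Got1* and *Sucla2* to *Suclg2* overlap.

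The sequences of *Idh2* and *Idh1* bear on whether their reads could be mistaken for one another, so the longest run that their principal transcripts in GENCODE vM21 share is shown. It spans 19 bases, at positions 390 to 408 of the *Idh2* transcript, far shorter than a read. Neither gene shared a stretch of 100 bases with any other gene.

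Shared run of Idh2 and Idh1: ACCAATGACCAGGTCACCA

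Promoters were searched because most cycle genes lay higher together. Of the 31 genes, 28 had a promoter in RefSeq (GRCm38.p6), from 250 bases before to 50 bases after the start. On both strands, the GC box GGGCGG was found in 20 of 28 genes (71.4%), beside 35.66% of all 32851 promoters and 67.2% of 10622 genes tested here. The CCAAT box CCAAT was found in 16 (57.1%, beside 37.41% and 42.5%). The letters AAGGTCA, a site of oestrogen-related receptors, which are known to drive mitochondrial genes, were found in *Ogdh*, *Sdhd* and *Got1* (10.7%, beside 4.72% and 4.0%). The letters CGCATGC, the core of the site of NRF1, a factor for respiratory genes, were found in *Ogdh*, *Sdhb* and *Glud1* (10.7%, beside 3.58% and 7.1%). A gene with several promoters counts as a match if any of them has one. *Idh2*, the gene that passed the test, held neither of the last 2 motifs. A match is a description of the letters, not a measured site.

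The window of *Idh2* (chr7:80115375-80115402, minus strand) is shown for the neighbouring CCAAT and GC boxes and that of *Idh1* (chr1:65179145-65179172, minus strand) for its GC box. Those of *Sdhb* (chr4:140961206-140961234, plus strand) and *Glud1* (chr14:34310584-34310612, plus strand) are shown for the NRF1 letters, which lie there on the opposite strand, and that of *Ogdh* (chr11:6292154-6292182, plus strand) for the receptor site, also on the opposite strand. Capitals mark the motifs.
Idh2: ggtgagacCCAATgGGGCGGcaggttct
Idh1: cgtcgtggaggGGGCGGggcttcgggag
Sdhb: aagcccagtggGCATGCGccctacgggcc
Glud1: cccgcccgcgaGCATGCGcaccaagccca
Ogdh: ggacacggcgcTGACCTTggtgcctgcgg

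Genes around the cycle gave a mixed picture. Of 66 neighbouring genes tested, 25 had every *Tarsl2*-/- mouse above every *Tarsl2*+/+ mouse (37.9%, beside 12.6% of all genes). The reverse order was seen in 5 (7.6%, beside 12% of all genes). Of the 66 genes, 4 were called higher (0.896% of all genes were) and 0 lower (1.37% were). Without mouse 583, 595, 589 or 591, 0 of the 66 were called, without mouse 588 1 was, and without mouse 584 6 were. *Pdha1*, the catalytic subunit of pyruvate dehydrogenase, which makes the acetyl-CoA that enters the cycle, was at 189, 228 and 175 CPM in *Tarsl2*+/+ mice and at 255, 311 and 311 CPM in *Tarsl2*-/- mice (log2 fold change 0.56, standard error 0.12, adjusted p = 0.0347), and was the 1 gene called of 6 for pyruvate entry. *Slc25a22*, a mitochondrial glutamate carrier, was the 1 called of 6 carriers tested, at 7.31, 10.5 and 7.98 CPM against 12.9, 19.6 and 13.1 CPM (0.82, standard error 0.19, adjusted p = 0.0481). Both were separated between genotypes.

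The 66 neighbouring genes include 34 subunits of complexes I, III, IV and V, so the counts for these are part of those above. Of the 34, 15 had every *Tarsl2*-/- mouse above every *Tarsl2*+/+ mouse (44.1%, beside 12.6% of all genes). The reverse was seen in 2 (5.9%, beside 12% of all genes). Of the 34 log2 fold changes, 21 were positive and 13 negative, with a median of 0.08, and 2 genes were called higher (0.896% of all genes were). The 2 called genes were *Atp5b*, the beta subunit of ATP synthase (0.53, adjusted p = 0.0280), and *Ndufa9*, of complex I (0.36, adjusted p = 0.0488, or 0.0531 without the unnamed regions). For the 4 genes of glutamine and alanine handling, 0 were called, with *Gpt*, the cytosolic alanine aminotransferase, at 0.70 (adjusted p = 0.0665) and *Glul*, glutamine synthetase, at 0.40 (adjusted p = 0.153). Routes that supply succinyl-CoA from propionyl-CoA (0 of 4 called) had *Mcee* at -0.26 (adjusted p = 0.269) and *Mut* at 0.16 (adjusted p = 0.523). The purine nucleotide cycle, which yields fumarate in working muscle, had 0 of 3 called, with *Ampd1*, AMP deaminase, at -0.27 (adjusted p = 0.211) and *Adsl*, adenylosuccinate lyase, at 0.17 (adjusted p = 0.271). Of 5 related dehydrogenases tested, 0 were called, and *Aldh5a1*, succinate semialdehyde dehydrogenase, was at 0.39 (log2 scale, adjusted p = 0.389).

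The number of enzyme genes called depended on the fit. DESeq2 called 6 of the 31 higher (*Cs*, *Fh1*, *Idh2*, *Idh3b*, *Idh3g* and *Sdha*) and 0 lower, while 1.96% of the 15271 genes to which it gave an adjusted p were called higher. Run on the 15075 genes that edgeR tested, it called the same 6, beside 2.14% of the 14490 genes with an adjusted p. With edgeR, leaving out mouse 584 gave 6 calls (4.06% of all genes were called then, in either direction), leaving out mouse 588 gave 1, and leaving out any of the other 4 mice gave 0.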

How the data were processed

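Muscle RNA of 3 *Tarsl2*+/+ and 3 *Tarsl2*-/- mice was sequenced, 1 library per mouse, and genotypes were taken from the sample labels. The label KOT of mouse 589 was read as *Tarsl2*-/-, like the label KO. The values deposited by the authors are raw read counts for each gene. The study's methods name HISAT2 and mm10, while the submitters' processing notes list Bowtie 0.12.2 and mm8. Coordinates of the count table were identical to GENCODE vM21 (GRCm38) for 28 of the 31 enzyme genes. The counting tool, annotation and strand setting are not given in the sources used here. Of the 53084 entries, 448 are transcribed regions with coordinates but no gene name (0.12% of counts), and 300 of them were among the 15075 entries tested.

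Genes were kept by filterByExpr (minimum count 10, minimum total 15), TMM-scaled, and compared by edgeR 4.0.16 in R 4.3.3 (quasi-likelihood, genotype as the only factor). P-values were adjusted by Benjamini-Hochberg over all 15075 genes, with a threshold of 0.05. Each standard error is the size of the log2 fold change over the root of its F statistic. Alternatives were DESeq2 1.42.0, limma-voom (limma 3.58.1), other scalings and filters, and fits without 1 library. The procedure was tested on simulated data with log2 fold changes of 1 planted in either direction. That is larger than the change of every enzyme gene except *Pck1*. How often smaller changes would be called was not tested. The enzyme genes, lists, motifs and tests were chosen with earlier results of these data known. All 31 enzyme genes are named, and from each list of neighbouring genes those called or, where none was, the 2 with the smallest p, while *Adipoq*, *Lep*, *Actn3*, *Myh1*, *Myh4*, *Pvalb* and *Tnnc2* were named after their values were seen. The result of 1 gene that this rule names is not reported here. The spread between these mice is the only error measured, and counts carry no molecular identifiers.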

Additional observations from a re-analysis of the deposited data

How the results depend on the processing

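Of the 31 enzyme genes, 26 kept the direction of their log2 fold change in 13 alternative fits. The exceptions were *Me1*, with values from -0.18 to 0.057 in the fits without 1 library (0.027 without mouse 584 and 0.057 without mouse 591), *Got1*, from -0.046 (without mouse 584) to 0.19, *Dld*, from -0.0013 (without mouse 588) to 0.17, *Pck2*, from -0.27 to 0.0013 (without mouse 588), and *Pcx*, from -0.18 (without mouse 589) to 0.61. The log2 difference of the *Sucla2* to *Suclg2* ratio ranged from -0.014 (without mouse 588) to 0.16. The cause of these changes was not tested. Without a filter on low counts, 9 enzyme genes were called higher and 1 lower (*Acly*), with 8 neighbouring genes called. Over all genes, 1437 of 25553 were called then (5.62%, in either direction). The 9 were *Cs*, *Dlst*, *Idh2*, *Idh3b*, *Idh3g*, *Sdha*, *Aco1*, *Pck1* and *Pcx*. With the filter and without mouse 589, the log2 fold changes of the last 3 were 0.11, 0.41 and -0.18. DESeq2 without that filter called 6 enzyme genes higher, 11 neighbouring genes and 670 of 15271 genes with an adjusted p (4.39%), where edgeR called 342 of 15075 (2.27%). On the genes edgeR tested, a fit added after seeing the data, DESeq2 called 6 enzyme genes higher, 7 neighbouring genes and 719 of 14490 genes (4.96%). Scaling by library totals alone left 1 neighbouring gene called. When 1 library was left out, between 81 (without mouse 583) and 625 (without mouse 584) genes were called, between 0 and 6 enzyme genes were called higher, and between 0 and 6 neighbouring genes were called. The number of enzyme genes with every *Tarsl2*-/- mouse below every *Tarsl2*+/+ mouse was between 2 and 4 when 1 library was left out (4, or 12.9%, without mouse 584 or 591, beside 20.2% and 17% of all genes), an alternative chosen after seeing the data, as was the same count for mice above. In edgeR, scaling by relative log expression (RLE) or by the upper quartile gave 1 enzyme gene called higher and 0 lower. So did a minimum of 10 counts in every library, limma-voom and the fit reported. Without the 448 unnamed regions, also chosen after seeing the data, 329 of 14775 genes were called, with *Idh2* (adjusted p = 0.0364 by edgeR) the 1 enzyme gene and 3 neighbouring genes among them. No paired analysis was possible because the genotypes share no mouse numbers. With 3 mice per genotype, standard errors of the enzyme genes ran from 0.08 to 0.41 on the log2 scale, so genes that were not called are not shown to be equal.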

Other observations

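*Nnt*, the nicotinamide nucleotide transhydrogenase that passes electrons between NADH and NADPH in mitochondria, had 2, 3 and 5 counts in *Tarsl2*+/+ mice 583, 584 and 595 and 13, 8 and 13 counts in *Tarsl2*-/- mice 588, 589 and 591. It was too low to be tested, and C57BL/6J mice are known to carry a deletion in this gene. At 0.117 to 0.262 CPM against 0.499 to 0.725 CPM, the genotypes did not overlap. Among the genes tested, 12.6% were separated in this direction, but those genes passed the count filter and *Nnt* did not. The share among genes with as few counts was not computed, and each value of *Nnt* rests on 13 counts or fewer.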
